A study of Mus musculus with 4 samples.

Results

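Sertoli cells are the supporting cells of the seminiferous tubule, and 10 of their genes were followed here across single testis cells of 4 libraries. The genes were taken by name from the 18419 genes of the deposited table and all 10 were found. They comprise the transcription factors Sox9, Wt1 and Rhox8, the anti-Müllerian hormone receptor Amhr2, the inhibin subunit Inha, the secreted proteins Clu, Cst9 and Cst12, the protease Ctsl, and Aard, a gene named for its protein sequence. Testes of ICR mice were dissociated and sequenced with a droplet method that counts the 3' ends of transcripts by unique molecular identifiers (UMIs). A0 was the control without alginate oligosaccharides (AOS, short sugar chains cut from the seaweed polymer alginate), A10 received AOS at 10 mg per kg body weight, B0 received busulfan alone, an alkylating drug that kills dividing germ cells, and BA10 received busulfan plus AOS at 10 mg per kg body weight. The mice were young males, cells of several mice were pooled, and each group is 1 library, so no difference between groups has a replicate check and no test was possible. Every interval below is a 95% interval for counting error alone.

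Sertoli cells span the wall of the tubule, hold the germ cells at every stage, seal the blood-testis barrier and secrete the fluid, hormones and binding proteins in which sperm form. Sox9 and Wt1 encode the transcription factors that set up and keep this cell identity, and Rhox8 encodes a homeobox protein of the reproductive cluster on the X chromosome. Amhr2 encodes the receptor of anti-Müllerian hormone, which Sertoli cells themselves secrete, and Inha encodes the alpha subunit of inhibin, the hormone with which they restrain pituitary release of follicle-stimulating hormone. Sertoli cells do not divide in the adult, whereas the germ cells around them do.

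In the mouse genome (build mm10, GENCODE M21 annotation) all 10 are protein-coding genes. Sox9 lies on chromosome 11 from 112782224 to 112787760 and Wt1 on chromosome 2 from 105126529 to 105173616. Rhox8 lies on the minus strand of chromosome X from 37874778 to 37878944. Amhr2 and Aard lie on chromosome 15, from 102445367 to 102454633 and from 52040107 to 52045722. Inha lies on chromosome 1 from 75507077 to 75510366 and Clu on chromosome 14 from 65968483 to 65981547. Ctsl lies on the minus strand of chromosome 13 from 64359337 to 64370890, where it overlaps the antisense gene Gm47123 and a pseudogene on its own strand, Gm49230. Cst12 (148789361 to 148793546) and Cst9 (148835147 to 148838738) lie 41600 bases apart on the plus strand of chromosome 2, with Cst8 and Cst13 between them.

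Promoter sequences from RefSeq (GRCm38.p6), running from 250 bases before to 50 after RefSeq's gene start, were held for 5 of the 10 genes (Inha, Cst12, Cst9, Ctsl and Amhr2). For Inha, Ctsl and Cst12 that start lies inside the GENCODE span given above. Those of Cst12 and Cst9 are shown because the levels of these neighbouring genes followed each other most closely across the clusters of cells, and that of Amhr2 because it held the motif AAGGTCA of the steroidogenic factor SF-1, in capitals. The windows are chr2:148789115-148789414, chr2:148834897-148835196 and chr15:102445117-102445416, all on the plus strand, 5' to 3'.
Cst12: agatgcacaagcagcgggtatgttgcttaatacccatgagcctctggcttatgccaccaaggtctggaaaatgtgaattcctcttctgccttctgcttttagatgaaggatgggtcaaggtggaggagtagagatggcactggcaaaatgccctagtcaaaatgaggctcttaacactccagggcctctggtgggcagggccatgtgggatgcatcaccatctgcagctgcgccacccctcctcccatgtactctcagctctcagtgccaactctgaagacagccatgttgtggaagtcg
Cst9: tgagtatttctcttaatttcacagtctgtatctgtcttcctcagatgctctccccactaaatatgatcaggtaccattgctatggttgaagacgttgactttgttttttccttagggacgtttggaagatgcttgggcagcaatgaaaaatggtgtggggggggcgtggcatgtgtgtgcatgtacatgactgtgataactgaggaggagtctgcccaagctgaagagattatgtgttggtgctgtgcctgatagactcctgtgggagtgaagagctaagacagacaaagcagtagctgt
Amhr2: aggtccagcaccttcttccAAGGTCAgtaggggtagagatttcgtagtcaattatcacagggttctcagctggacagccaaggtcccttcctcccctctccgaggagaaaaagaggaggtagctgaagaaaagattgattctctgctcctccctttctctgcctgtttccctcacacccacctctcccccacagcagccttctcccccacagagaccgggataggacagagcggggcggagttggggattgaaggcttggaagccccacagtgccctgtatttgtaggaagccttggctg

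Aligned over their length, the Cst12 and Cst9 promoters were 50.3% identical, and the other pairs of the 5 promoters had a median of 48.5% and a highest of 51.9%, for Cst12 and Ctsl. In the Amhr2 window AAGGTCA began at position -231, where +1 is RefSeq's gene start, and this motif stood on either strand in 4.72% of 32851 mouse promoters of the same length. The SOX9 motif AACAAT, held by 10.7% of all promoters on either strand, was found in the 5 windows once, as its reverse complement in Ctsl at position -143. The GATA motif AGATAA was found in none of them, against 11.2% of all promoters. The windows of Cst12, Cst9 and Inha held none of the 3 motifs.

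The libraries differed in size and depth. They held 8941 (A0), 9682 (A10), 4659 (B0) and 3778 (BA10) cells, with a median of 12685, 10948, 4214 and 17989 UMIs per cell and 150812974, 143714595, 25323535 and 91304225 UMIs in all. The shallowest cell of BA10 had 9013 UMIs and that of B0 2985, against 7687 in A0 and 6716 in A10, so the deposited cells passed a different lower limit in each library. Between 31 and 135 cell barcodes were shared by each pair of libraries. Cell types were rebuilt by clustering, since no annotation was used here, and the 10 genes were left out of the genes used for it. Levels are given as CPM, counts of UMIs of a gene per 1000000 UMIs in the library or cells named. A 3' count is not divided by transcript length, so levels of different genes were not ranked against each other.

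All 10 genes had their highest library level in B0 and their second highest in BA10, with intervals apart at both steps, and A0 and A10 lay lowest. The share of all genes in this order is not given here. Of 15971 genes with at least 30 UMIs in A0 and B0 together, 41.7% were at least 2-fold higher in B0. Among the transcription factors, Sox9 was at 31.2 CPM in B0 and 1.66 in BA10, against 0.663 in A0 and 0.494 in A10. Wt1 was at 19.2 CPM in B0 and 2.71 in BA10, against 0.789 in A0 and 0.793 in A10. Rhox8 was at 190.0 CPM in B0 and 16.1 in BA10, against 5.01 in A0 and 5.76 in A10. For these 3 regulators the intervals of A0 and A10 overlapped. In the hormone pathways, Amhr2 was at 228 CPM in B0 and 22.5 in BA10, against 5.04 in A0 and 5.57 in A10. Inha was at 199 CPM in B0 and 29.4 in BA10, against 4.41 in A0 and 5.52 in A10. The intervals of A0 and A10 overlapped for Amhr2 and were apart for Inha.

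The secreted proteins, the protease and Aard also had B0 highest and BA10 second. Clu, which encodes the extracellular chaperone clusterin, was at 1569 CPM in B0 and 109 in BA10, against 10.2 in A0 and 12.3 in A10. Cst9 and Cst12 encode reproductive tract members of the cystatins, a family of inhibitors of cysteine proteases. Cst9 was at 362 CPM in B0 and 74.9 in BA10, against 17.7 in A0 and 25.8 in A10. Cst12 was at 671 CPM in B0 and 93.0 in BA10, against 18.3 in A0 and 25.7 in A10. Both cystatins, like Clu, lay higher in A10 than in A0 beyond counting error. Ctsl, which encodes cathepsin L, a cysteine protease of the lysosome that Sertoli cells also secrete, was at 398 CPM in B0 and 39.2 in BA10, against 7.16 in A0 and 8.20 in A10. Aard was at 508 CPM in B0 and 99.5 in BA10, against 24.2 in A0 and 23.3 in A10. A library level sums over all its cells, so a different share of Sertoli cells and a different amount of RNA per cell cannot be told apart in it.

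**Figure D1:**
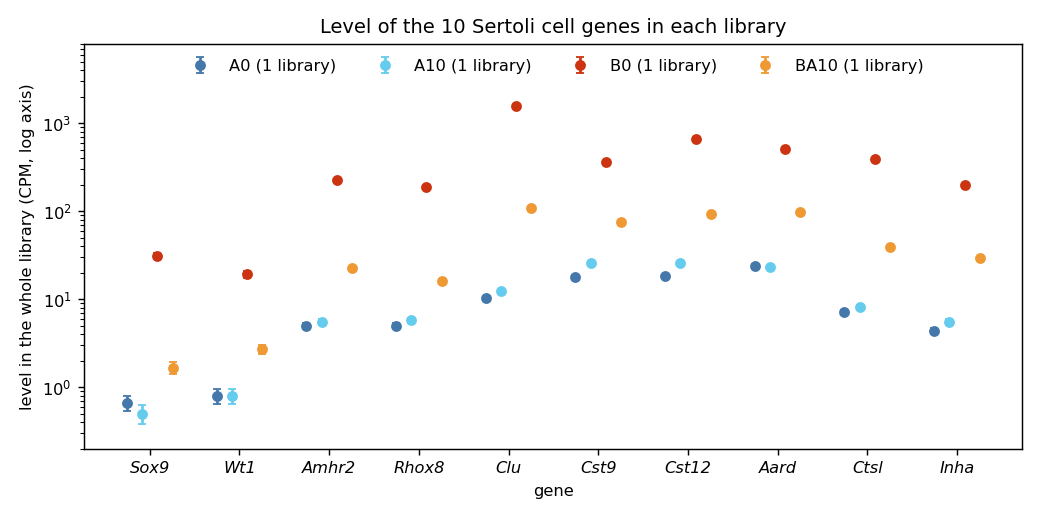
Level of each of the 10 genes in each library (CPM, log axis), 1 point per library with its 95% Poisson interval. B0 is highest and BA10 second for all 10 genes, for example 1569 and 109 CPM of Clu against 10.2 in A0.

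One of 26 clusters was Sertoli-like, and it came almost wholly from B0. It held 187 cells, of which 182 were from B0 (3.91% of its cells, Clopper-Pearson interval 3.37 to 4.50%) and 5 from BA10 (0.132%, 0.0430 to 0.309%). A0 had 0 of 8941 cells, which allows a share of up to 0.0336% at 3 cells of the total and up to 0.0412% by the Clopper-Pearson interval. A10 had 0 of 9682, which allows up to 0.0310% and 0.0381% by the same limits. Of 11 Sertoli cell markers that are not among the 10 genes, 10 were found in at least 10% of its cells. In its B0 cells Defb36, a beta-defensin, was at 3436 CPM against 289 in the other B0 cells, and Cldn11, the claudin of the blood-testis barrier, was at 1485 CPM against 45.1. Depth stood beside this count. The B0 cells of the cluster had a median of 4023 UMIs and a highest of 8756, so that 2 of 182 reached the shallowest cell of A0 and 0 of 182 reached the 9013 UMIs of the shallowest cell of BA10. Whether Sertoli cells of the other libraries were lost to their higher lower limits was not tested.

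Each of the 10 genes had its highest cluster level in the Sertoli-like cluster, a description and not a test, since clusters are drawn from the same cells. Sox9 was at 501 CPM there (454 to 551) and next highest at 37.5 CPM in the cluster named SPG-like, for spermatogonia. Rhox8 was at 1337 CPM there and next highest, at 357 CPM, in the same SPG-like cluster. For Cst9, Cst12, Aard and Ctsl this cluster was also second, at 9.77 to 24.2% of the Sertoli-like level. For Amhr2, Clu and Inha the second cluster was the Leydig-like one, the hormone-producing cells between the tubules, at 12.4 to 18.9% of the Sertoli-like level. Both second clusters came mostly from B0, with 250 of 264 SPG-like and 2894 of 2944 Leydig-like cells. In B0 the 11 Sertoli markers summed to 1159 CPM in SPG-like, 447 in Leydig-like, 729 in macrophage-like and 6490 in Sertoli-like cells. The part of RNA from other cells in these levels was not tested. Wt1 differed from the rest. It was at 208 CPM in the Sertoli-like cluster (178 to 241) and at 184 CPM (133 to 249.2) in cluster 19, which held 54 B0 cells among its 56, was led by Cldn5, Tm4sf1 and Ptn and was left unnamed. Sox9 had 0 UMIs in cluster 19, against 42 UMIs of Wt1.

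**Figure D2:**
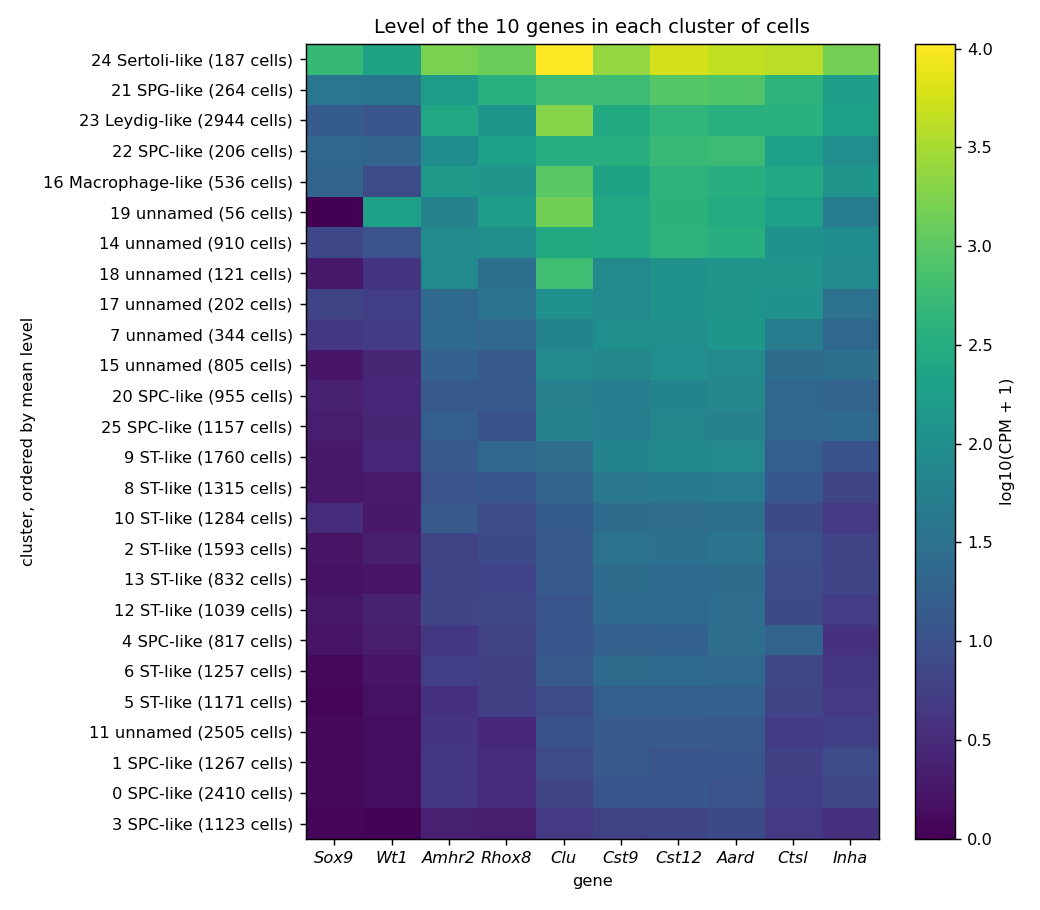
Level of the 10 genes (columns) in each of the 26 clusters (rows, ordered by mean level, with the number of cells), as log10(CPM + 1). The Sertoli-like cluster, the top row, is highest for every gene, and cluster 19 stands out in the Wt1 column with 184 CPM beside no Sox9.

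Within the 182 Sertoli-like cells of B0 the genes were found together. Clu and Aard had a UMI in all 182 cells, with medians of 32.5 and 18 UMIs per cell. Cst12 was found in 99.5% of cells with a median of 21 UMIs, Ctsl in 98.9% with a median of 11, and Rhox8 in 97.3% with a median of 6. The share was 95.1% for Amhr2, 92.9% for Cst9, 91.2% for Inha, 82.4% for Sox9 and 61.0% for Wt1. In macrophage-like cells of B0, a type not known for Sox9 or Wt1, the median was 4012 UMIs against 4023, and the share was 8.84% for Sox9, 5.39% for Wt1, 41.4% for Rhox8, 81.9% for Cst12 and 95.9% for Clu. A UMI of Clu was thus nearly as common in macrophage-like as in Sertoli-like cells, while a UMI of Sox9 or Wt1 was not. The macrophage-like cells also held the 7 Leydig cell markers at a summed 16804 CPM, against 26296 in Leydig-like cells, and the part of RNA from other cells in these shares was not tested. The level separated the cells more than the share did, since Clu was at 10126 CPM in the Sertoli-like cells of B0 and at 1579 in its macrophage-like cells.

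Among the Sertoli-like cells of B0 some of the genes varied together. Spearman's rho of the genes' shares of a cell's UMIs was 0.78 for Cst12 and Inha, 0.71 for Cst9 and Cst12, and 0.69 for Amhr2 and Cst12. With the protease Ctsl it was 0.67 for Amhr2 and 0.66 for Clu. Not all secreted genes did so, since rho was 0.31 for Clu and Cst9. Rhox8 followed none of the other genes that were found in at least 90% of these cells, with rho of at most 0.18. These values are over 182 cells of 1 library. They share depth, with which Cst12 had a rho of 0.34, Inha 0.25 and Rhox8 -0.13, and none was tested. The number of UMIs per cell ranged from 0 to 48 for Cst9, from 0 to 86 for Cst12, from 5 to 233 for Clu and from 0 to 31 for Rhox8.

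In the 5 Sertoli-like cells of BA10 the summed share of the 10 genes overlapped that of B0 in 4 and lay below it in 1. The genes together made up 0.794, 2.98, 3.30, 4.94 and 6.23% of the UMIs of these cells, against a lowest of 0.936%, a median of 2.87% and a highest of 6.49% in the 182 cells of B0. Clu had 34, 181, 187, 241 and 241 UMIs in the 5 cells and Sox9 had 1, 2, 3, 3 and 5. Ctsl ranged from 6 to 152 UMIs and Aard from 18 to 50. The cell with the lowest share had 5 UMIs of Sox9, the most of the 5. Rhox8 had 0 UMIs in 2 of the 5 cells, Wt1 and Inha had 0 in 1 each, and 3 of the 5 had a UMI of all 10 genes.

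By that summed share all cells of A0 and A10 lay lower. The 10 genes made up at most 0.483% of the UMIs of an A0 cell and at most 0.484% of an A10 cell, below the lowest Sertoli-like cell of either busulfan library. Some other cells of B0 lay within the Sertoli-like range, with 0.976% at their 98th percentile and a highest of 5.12%. After every cell was thinned to 2900 UMIs, at which no cell was left out, the median cell had a UMI of 0 of the 10 genes in A0 and A10, of 4 in B0 and of 1 in BA10. Unthinned medians were 1, 1, 6 and 5. In the Sertoli-like cells of B0 the thinned median was 9 of 10 genes, and 40 cells had all 10. Outside the Sertoli-like cluster 7 cells of B0 had all 10, and the largest number in any A0 or A10 cell was 7 of the genes, all after thinning. Unthinned, 1 cell of A0 and 0 cells of A10 had all 10.

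**Figure D3:**
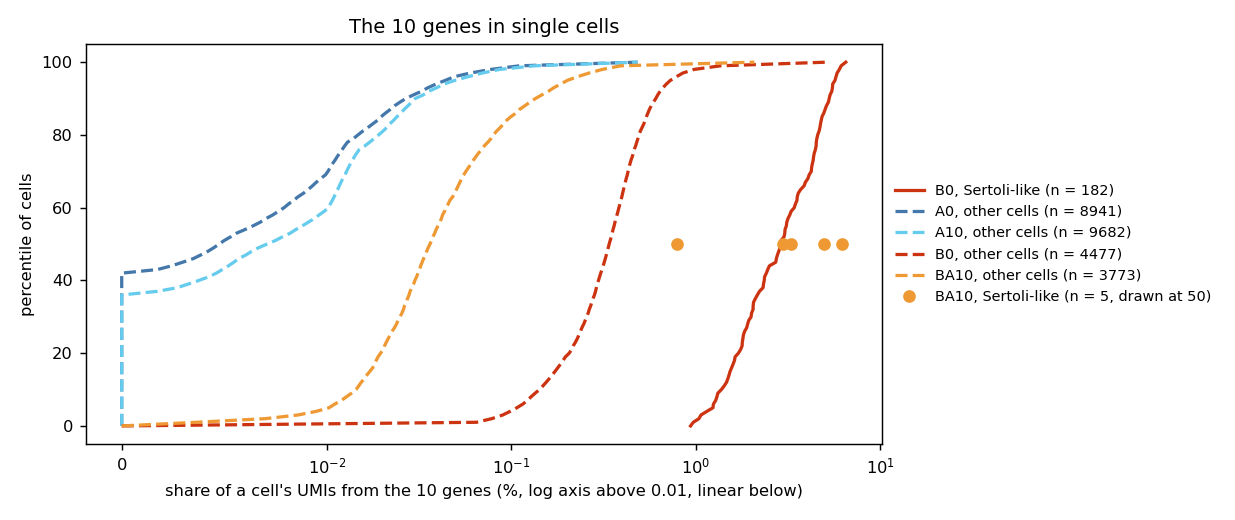
Share of each cell's UMIs that came from the 10 genes (x axis, in percent, log above 0.01 and linear below) against the percentile of cells (y axis), by library. Sertoli-like cells of B0 run from 0.936 to 6.49%, the 5 of BA10 (points) from 0.794 to 6.23%, and all A0 and A10 cells stay at or below 0.484%. Other cells overlap the Sertoli-like range in both busulfan libraries, up to 5.12% in B0 and 2.08% in BA10.

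Busulfan alone against the control was the largest difference. In B0 over A0 all 10 genes were at least 2-fold higher, where 41.7% of the 15971 genes with at least 30 UMIs in the pair were. The CPM ratio was 153 (146 to 162) for Clu, 55.6 (52.2 to 59.2) for Ctsl, 47.0 (38.2 to 58.5) for Sox9 and 24.4 (19.9 to 30.04) for Wt1. It was 45.3 for Amhr2, 45.0 for Inha, 37.9 for Rhox8 and 36.7 for Cst12. The lowest were Aard (20.97, 20.2 to 21.8) and Cst9 (20.4, 19.5 to 21.3). On the log2 scale with 1 CPM added, the median of the 10 was 5.06 and that of all genes tested 0.53.

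Markers of other cell types were counted in the same libraries. The 7 Leydig cell markers summed to 14526 CPM in B0 and 399 in BA10, against 7.74 in A0 and 10.2 in A10. The 8 macrophage markers summed to 14.4, 11.3, 565 and 52.6 CPM, and the 8 markers of spermatids (ST) to 41177, 47555, 260 and 1200 CPM. The 11 Sertoli markers, none of them at 0 in any library, summed to 25.4, 30.8, 691 and 87.9 CPM. The part of this shift in cell makeup in the 10 genes' ratios was not tested.

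Sertoli-like cells held a part of the counts in B0 that differed between the genes. They carried 3.10% of all UMIs of B0, and of the members' UMIs 51.3% for Sox9, 34.5% for Wt1, 29.9% for Ctsl, 28.2% for Aard, 27.8% for Cst12 and 20.0% for Clu. With that cluster left out, a choice made after the data were seen, all 10 genes were still at least 2-fold higher in B0 than in A0, at log2 ratios from 2.97 (Wt1) to 6.85 (Clu). Restricting every library to cells of at least 9013 UMIs, which left 448 B0 cells and no Sertoli-like cell, lowered the log2 ratio of Sox9 from 4.27 to 2.41, that of Wt1 from 3.50 to 2.19, that of Ctsl from 5.61 to 3.80 and that of Clu from 7.13 to 4.89. Cst9 moved least, from 4.27 to 3.72. The limit falls unevenly on cell types. Median UMIs were 4060.5 in the Leydig-like, 4218.5 in the macrophage-like and 4110 in the SPG-like cluster, against 11153.5 in the unnamed cluster 14. The part of this in the lower ratios was not tested.

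The genes were also higher in B0 among cells that were named as germ cells. In cells named SPC-like, for spermatocytes, Rhox8 was at 168 CPM in B0 and 1.75 in A0, a ratio of 96.1, and Cst12 was at 496 CPM against 7.42, a ratio of 66.8. Inha had the lowest ratio there, 22.2, at 93.6 CPM against 4.22. All 10 intervals excluded 1, and the share of all genes that did so in these cells is not given here. Macrophage-like cells of B0 had Cst12 at 601 CPM, so its level was not particular to germ cells. Different clusters supplied these cells, mainly 22 in B0 and 0, 1, 3 and 4 in A0, and the B0 cells were fewer (207 against 2752). Cluster 22 had a median of 5144.5 UMIs per cell, against 9661.5 to 30316 in clusters 0, 1, 3 and 4. The part of depth and of RNA from other cells in these ratios was not tested.

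**Figure D4:**
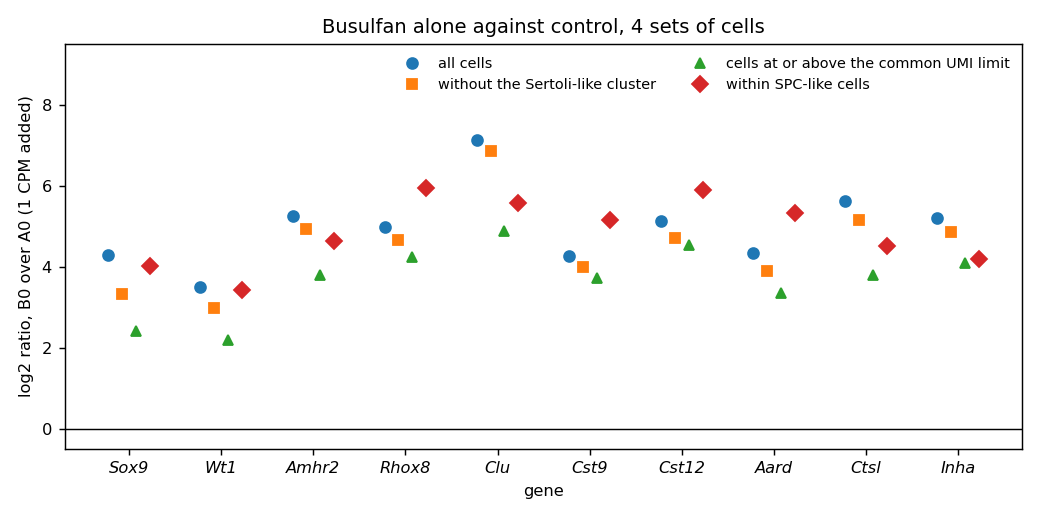
Log2 ratio of B0 over A0 (1 CPM added) for each gene in 4 sets of cells. All points lie above 0, the common UMI limit gives the lowest value for each gene, and Sox9 goes from 4.27 in all cells to 2.41 under that limit.

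The proportions among the genes differed between cell classes of B0. Per UMI of Cst12, Clu had 1.68 UMIs in Sertoli-like cells (1.62 to 1.74), 4.39 in Leydig-like cells (4.27 to 4.52), 2.63 in macrophage-like cells and 0.63 in SPG-like cells (0.57 to 0.69). Sox9 had 0.0857 UMIs per Cst12 UMI in Sertoli-like cells, 0.0513 in macrophage-like, 0.0416 in SPG-like and 0.0321 in Leydig-like cells. Rhox8 ran the other way, with 0.232 in Sertoli-like cells (0.217 to 0.248) and 0.390 in SPG-like cells (0.347 to 0.436). Amhr2 had 0.550 in Leydig-like cells (0.526 to 0.575), 0.270 in Sertoli-like cells and 0.175 in SPG-like cells. Leydig-like and macrophage-like cells thus had more Clu per Cst12 than the Sertoli-like cells, and SPG-like cells less. How much of each gene's count outside the Sertoli-like cluster came from free RNA was not tested.

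A0 and A10 had no Sertoli-like cell, and the 10 genes were found there at low levels in germ cells. Cluster 10, an ST-like cluster led by Dcdc2c, Faiml and Esyt3, was chosen after its values were seen. In A0 its 674 cells held 33 of the library's 100 Sox9 UMIs and 156 of its 760 Amhr2 UMIs, beside 7.54% of the library's cells and 7.95% of all its UMIs. Amhr2 there had 0.555 UMIs per Cst12 UMI (0.454 to 0.678), which overlapped the intervals of cluster 1 (0.480, 0.313 to 0.723) and cluster 0 (0.365, 0.255 to 0.516). In A10 its 608 cells held 18 of 71 Sox9 UMIs and 102 of 800 Amhr2 UMIs, beside 6.37% of all UMIs of A10, and Amhr2 had 0.363 UMIs per Cst12 UMI (0.287 to 0.457), again overlapping other clusters. The level of Sox9 in cluster 10 was 2.75 CPM in A0 (1.89 to 3.87) and 1.97 CPM in A10 (1.17 to 3.11), with cluster 7 of A0 at 2.42 CPM (0.659 to 6.19), so these clusters did not differ beyond counting error. Amhr2 in A0 was at 13.0 CPM there (11.1 to 15.2), near its 13.3 CPM in cluster 7 and 12.1 in cluster 9.

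AOS without busulfan was a small difference. In A10 over A0 none of the 10 genes was at least 2-fold higher or lower, where 0.0396% of the 15139 genes with enough UMIs were at least 2-fold higher and 0.0793% at least 2-fold lower. Cst9 was 1.45-fold higher (1.38 to 1.53), Cst12 1.41-fold (1.34 to 1.48), Inha 1.25-fold (1.13 to 1.39) and Clu 1.20-fold (1.12 to 1.29). The ratio was 1.15 for Rhox8 and 1.14 for Ctsl, and these intervals also excluded 1. For Sox9 (0.542 to 1.02), Wt1 (0.771 to 1.31), Amhr2 (0.999 to 1.22) and Aard (0.919 to 1.01) they did not. Among cells of at least 9013 UMIs the intervals of Rhox8 (1.08, 0.964 to 1.21) and Ctsl (1.06, 0.964 to 1.16) included 1, and Aard was lower in A10 at 0.923 (0.876 to 0.972). The 2 cystatins stood at the 99.7 and 99.5 percentiles of all genes tested.

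Both cystatins were higher in A10 within both germ cell classes when each class was pooled. Among SPC-like cells Cst9 was at 12.7 CPM in A10 and 7.11 in A0, a ratio of 1.79 (with a lower limit of 1.57), and Cst12 at 12.5 and 7.42, a ratio of 1.69. Among ST-like cells Cst9 was at 35.6 and 25.5 CPM, a ratio of 1.39, and Cst12 at 36.1 and 26.1, a ratio of 1.38. By cluster, each cystatin's interval lay above 1 in 3 of 4 SPC-like and 7 of 8 ST-like clusters, and included 1 in clusters 4 and 13, where Cst12 had ratios of 1.08 and 1.04. Aard differed in direction between the classes, at a ratio of 1.22 in SPC-like and 0.898 in ST-like cells. These values are low, with 382 Cst12 UMIs in the 2752 SPC-like cells of A0, and intervals for counting error leave out any spread between mice. Over whole libraries the Sertoli marker Defb36 was also higher, at 14.9 CPM in A10 and 10.1 in A0, a log2 ratio of 0.51. That was the highest of 16 Sertoli ligands, secreted and junction proteins, whose lowest was -0.19 and median 0.03. The part of RNA from other cells in the cystatin ratios was not tested.

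After busulfan, the library with AOS had lower levels of all 10 genes. In BA10 over B0 all 10 were at least 2-fold lower, where 40% of the 15311 genes tested were. B0 was 18.7-fold above BA10 for Sox9 (15.7 to 22.4), 14.4-fold for Clu, 11.8-fold for Rhox8, 10.1-fold for Amhr2 and for Ctsl, and 4.83-fold for Cst9 (4.68 to 4.98). Among cells of at least 9013 UMIs, which left 448 B0 cells and no Sertoli-like one, these folds fell to 4.73 for Sox9 (3.40 to 6.49), 2.91 for Clu, 6.53 for Rhox8, 3.47 for Amhr2, 2.75 for Ctsl and 3.12 for Cst9. That limit falls unevenly on cell types, with a median of 4060.5 UMIs in the Leydig-like cluster against 11153.5 in the unnamed cluster 14. The part of this in the lower folds was not tested. The median log2 ratio over all cells was -3.06, and that of all genes tested -0.52. Against the control, BA10 was at least 2-fold higher for 9 of the 10 genes, where 12.6% of 15515 genes tested were. The largest CPM ratios over A0 were those of Clu (10.7), Inha (6.67) and Ctsl (5.48), and the lowest was that of Sox9 (2.51, 1.94 to 3.26), which with 1 CPM added did not reach a 2-fold difference. B0 and A0 each serve 2 of these comparisons, so the ratios are not independent of each other.

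The ratio of BA10 over B0 differed between sets of cells. Depth was not matched within these sets, and the library medians were 17989 UMIs per cell in BA10 and 4214 in B0. The part of depth in the ratios was not tested. Counts of intervals below are of the 10 genes alone, and the shares over all genes in the same cells are not given here. In macrophage-like cells (60 in BA10, 464 in B0) the ratio ran from 0.0543 for Sox9 to 0.234 for Aard, and all 10 intervals lay below 1. The BA10 cells there held only 2 UMIs of Sox9 and 1 of Wt1, and the Sox9 interval was 0.00644 to 0.204. In SPC-like cells it ran from 0.0556 for Sox9 to 0.214 for Inha, but different clusters supplied them, with 165 of the 207 B0 cells from cluster 22 and 913 and 1155 of the 2116 BA10 cells from clusters 20 and 25. In cluster 17, an unnamed cluster led by Dcn, Gsn and Adamts5, 9 of the 10 intervals lay below 1. In cluster 14 the ratios lay nearer 1, with 5 of the 10 intervals below 1 and 2 above. This unnamed cluster of 508 B0 and 386 BA10 cells was led by the haemoglobin genes Hba-a1, Hbb-b2 and Hbb-b1, with Cst12, Rhox8, Cst9 and Aard also among its 10 leading genes. Cst9 was at 261 CPM in BA10 and 273 in B0 there and Ctsl at 99.7 and 109, with intervals that included 1. Inha was at 85.0 and 95.8 CPM, a ratio of 0.887 (0.789 to 0.998). Clu (0.795, 0.744 to 0.850) and Amhr2 (0.846, 0.746 to 0.959) were lower in BA10 there as well. Aard was at 382 and 274 CPM, a ratio of 1.39 (with a lower limit of 1.31), whereas Rhox8 was at 68.4 and 128, a ratio of 0.532, and Cst12 at 325 and 483, a ratio of 0.673.

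**Figure D5:**
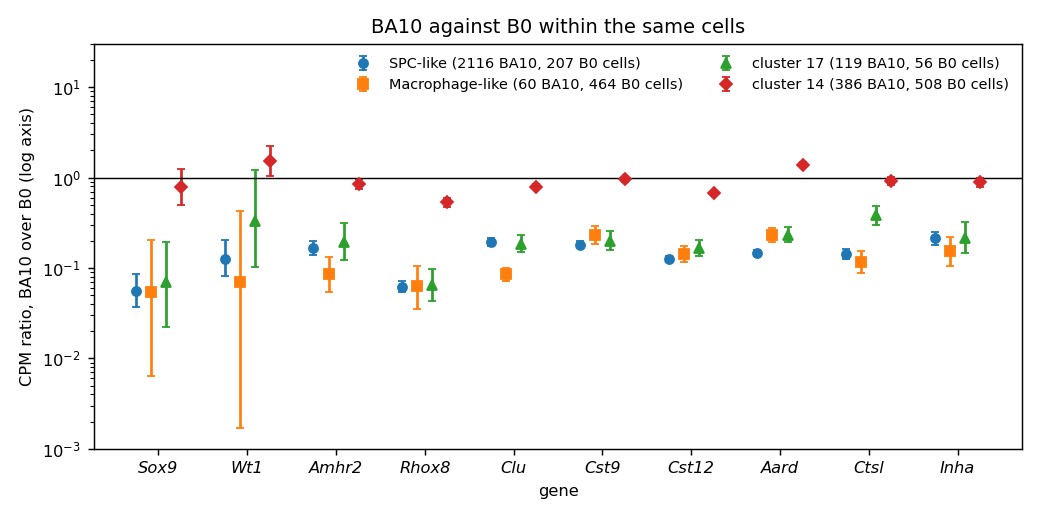
CPM ratio of BA10 over B0 (log axis) for each gene within 4 sets of cells, with 95% counting intervals. The points of SPC-like cells, macrophage-like cells and cluster 17 lie below 0.4 for all 10 genes, with SPC-like cells drawn mainly from cluster 22 in B0 and from clusters 20 and 25 in BA10, while cluster 14 lies between 0.532 (Rhox8) and 1.52 (Wt1).

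Other genes of Sertoli cells were counted in lists by role. Of 14 other regulators, 11 were at least 2-fold higher in B0 than in A0 and 1 was at least 2-fold lower, where 41.7% of all genes tested were higher and 17.4% lower. Nr5a1, the gene of SF-1, had a log2 ratio of 6.63 and its highest level in the Leydig-like cluster, and Gata4 (4.68) and Nr0b1 (3.77) were highest in the Sertoli-like one. Sox8, the close relative of Sox9, was at 0.106 CPM in A0 and 4.62 in B0. Of 16 ligands, secreted and junction proteins 12 were at least 2-fold higher and 0 lower. The largest log2 ratios were those of the prostaglandin D synthase Ptgds (9.41) and of Cst3, cystatin C (7.03), highest in the Leydig-like cluster, and of the protease inhibitor Serpina5 (7.01) and the gap junction protein Gja1 (5.72), highest in the Sertoli-like cluster. Of these 2 lists 12 of 14 and 13 of 16 genes were at least 2-fold lower in BA10 than in B0, against 40% of all genes tested.

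The partners of Amhr2 and Inha were mixed in where they were found. Of 16 genes tested of the anti-Müllerian hormone, activin and inhibin pathways, 12 were at least 2-fold higher in B0 than in A0 and 0 lower, against the same shares over all genes. Tgfbr3, the inhibin co-receptor betaglycan, had a log2 ratio of 4.31 and the type I receptor Acvr1 3.97, both highest in the Leydig-like cluster, and the type I receptor Bmpr1a had 3.15. Amh itself, the ligand, was at 2.17 CPM in B0 and 0.526 in BA10, against 0.119 in A0 and 0.0835 in A10, and was highest in the Sertoli-like cluster. Of the beta subunits that pair with Inha, Inhbb was at 84.9 CPM in that cluster and Inhba at 1.20 CPM.

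Cystatins and cathepsins beyond the members went different ways. Of 8 other cystatins tested, 4 were at least 2-fold higher in B0 than in A0 and 3 at least 2-fold lower. Over all genes tested 41.7% were higher, which 4 of 8 is near, and 17.4% were lower. Cst8 and Cst13, which lie between Cst12 and Cst9 in the order Cst12, Cst8, Cst13, Cst9, were highest in ST-like clusters, at 2002 and 1550 CPM, and were at 22.7 and 1.20 CPM in the Sertoli-like cluster, where the outer genes Cst12 and Cst9 were at 5885 and 2346 CPM. Cst8 was at 557 CPM in A0 and 111 in B0, and Cst13 at 316 and 1.90. The inner and the outer genes of the row thus had opposite directions in B0 over A0. All 9 other lysosomal cathepsins were at least 2-fold higher in B0, against that 41.7%, with Ctsb at a log2 ratio of 7.55 and Ctsd at 7.14, and of the 9 only Ctsf had its highest level in the Sertoli-like cluster.

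Across the 26 clusters, Cst9 and Cst12 had the most similar pattern of any pair of the 10 genes, with a Pearson r of log2(CPM + 1) of 0.997, and 0.996 without the Sertoli-like cluster. The 3 genes most like Cst12 among all genes at 10 CPM or more in some cluster were Cst9, Defb36 (0.997) and Aard (0.996), and Defb36 was also first for Rhox8 (0.995). The nearest gene was Defb19 for Amhr2 (0.989), Sdc4 for Ctsl (0.986), Bok for Wt1 (0.986), Eppin for Inha (0.985) and Tpbgl for Sox9 (0.981). Sox9 and Wt1 were the least alike pair of the 10, at 0.717, and at 0.557 without the Sertoli-like cluster. Clusters share libraries and depth, so these values describe the pattern and were not tested.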

How the data were processed

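The submitters' processing notes name Cell Ranger 2.2.0 and build mm10, and the authors deposited 1 table of natural log values, ln(1 + 10000 × a gene's share of a cell's UMIs), a form read from the values. Whole UMIs were recovered from it (100% of values whole within 0.001) for 18419 genes in 27060 cells. With 1 library per group no test was run. UMIs were summed per library, cluster and class and given as CPM with exact Poisson intervals, shares with Clopper-Pearson intervals and CPM ratios with exact conditional binomial intervals, all at 95% and all covering counting error only. Log2 ratios add 1 CPM, and a gene was called at 2-fold among genes with at least 30 UMIs in the pair. Cells were clustered with scanpy 1.11.5 (2000 variable genes without the members, 30 components, 15 neighbours, Leiden resolution 1). A cluster was named from fixed markers when its best class scored at least 1.5 times the second. No other class could have more markers among the 10 leading genes, and at least 3 of its markers had to be in 10% of cells. A cluster with Dcn among its leading genes could be named only as peritubular myoid. The score and Dcn rules were set after the clusters were seen. Clusters 14 and 17 met the score rule for SPC-like but not every other rule. Scrublet marked 721, 838, 4 and 48 cells of A0, A10, B0 and BA10, which were kept. The 4 of 4659 B0 cells are too few to serve as a doublet check there. Named genes were the 10 members, up to 4 genes of each list by the largest B0 over A0 ratio, and the 3 genes most like each member over clusters, and others are named where a result turns on them. A few items that these rules name are not reported here. Members and lists were chosen with earlier results of these data known. Scripts were tested on simulated data.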

Additional observations from a re-analysis of the deposited data

Results flagged for a closer look

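Of the 10 genes, 6 had opposite directions in the pair of libraries with and without AOS, depending on busulfan. They were higher in A10 than in A0 and lower in BA10 than in B0, each beyond counting error. The share of all genes with such opposite directions is not given here. Of the genes tested, 40% were at least 2-fold lower in BA10 than in B0. The gap between the log2 ratios was 4.08 for Clu (0.24 without and -3.83 with busulfan), 3.65 for Rhox8 (0.17 and -3.48), 3.48 for Ctsl (0.17 and -3.31), 3.31 for Cst12 (0.47 and -2.84), 2.98 for Inha (0.27 and -2.71) and 2.77 for Cst9 (0.52 and -2.26). Among cells of at least 9013 UMIs, Rhox8 (a CPM ratio of 1.08, 0.964 to 1.21) and Ctsl (1.06, 0.964 to 1.16) no longer differed between A10 and A0 beyond counting error, which leaves 4 of the 6. Under that limit the gap was 1.71 for Clu (0.18 without and -1.53 with busulfan), 2.57 for Cst12, 2.08 for Cst9 and 1.78 for Inha. The limit also changes which cell types are compared, and the part of this in the smaller gaps was not tested. With 1 library per group the difference was not tested. The depth of the libraries and the share of Sertoli-like cells differed in the same pair, 182 cells in B0 and 5 in BA10, and their part in the result was not tested.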

How the results depend on the processing

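No paired analysis was possible because each group is 1 library. There were 7 alternatives (0.1 or 10 CPM added, centring on the median of all genes tested, the common limit of 9013 UMIs, the mean over cells, without Scrublet's cells and without the Sertoli-like cluster). Of the 36 log2 ratios beyond counting error, 0 changed direction under centring, the common limit, the mean over cells or without Scrublet's cells, and 0 of the 30 that leaving out the Sertoli-like cluster could alter did. Added CPM cannot change a direction. Under each of the 7, all 10 genes were at least 2-fold higher in B0 than in A0 and at least 2-fold lower in BA10 than in B0. Before any of these changes 41.7% and 40% of all genes tested were. The shares of all genes called in those directions under the 7 are not given here, so these counts cannot be set against them. The number at least 2-fold higher in BA10 than in A0 ran from 7 with 10 CPM added to 10 with 0.1 CPM added or the mean over cells. Centring moved the numbers of all genes called, from 2775 to 4412 lower in B0 than in A0, from 2037 to 3859 higher in BA10 than in B0 and from 1950 to 855 higher in BA10 than in A0. The B0 over A0 and BA10 over B0 counts are for directions opposite to the members'. In the members' directions, 6657 genes were called higher in B0 and 6118 lower in BA10 before centring. Those numbers after centring are not given here. Under 4 other clusterings the Sertoli-like cells numbered 182 to 202 in B0, 5 to 8 in BA10 and 0 in A0 and A10, and all 10 genes were highest in them. Depth limits the rest. Wt1 had a median of 1 UMI in a Sertoli-like cell of B0, and only 448 B0 cells reached the common limit.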
